A study of Mus musculus with 24 samples.

Results

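RNA was sequenced from the ACC (anterior cingulate cortex) and the mPFC (medial prefrontal cortex) of female and male C57BL/6 mice, 3 months old, 2 weeks after spared nerve injury (SNI) of the sciatic nerve or a sham operation. SNI is a model of neuropathic pain in which some branches of the nerve are cut and 1 is left whole, and the sham mice went through surgery without the nerve being cut. The 8 groups were female sham, female SNI, male sham and male SNI in the mPFC, and the same 4 in the ACC, with 3 libraries each, and each library was made from tissue punches pooled over several animals; differences between single mice are averaged within a pool, and the spread given here is the spread between pools. The genes described here are 40 genes for the synthesis of sterols, fatty acids and myelin glycolipids. They were chosen by name with earlier results of these data known, and their rows in the count tables were found by Ensembl identifier. All 40 were present among the 33364 genes of the tables, and all 40 passed the filter on low counts in every comparison.

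Cholesterol is built from acetyl-CoA through mevalonate, farnesyl diphosphate and squalene. The transcription factors SREBF1 and SREBF2 switch on the genes of these steps and of fatty acid synthesis when sterols are low: SCAP escorts them to the Golgi, where they are cut into their active form, and the INSIG proteins hold SCAP back when sterols are plentiful. The brain makes its own cholesterol, since lipoproteins of the blood do not cross into it, and most of it lies in myelin, whose membrane is also rich in galactosylceramide and sulfatide. Oligodendrocytes and astrocytes are the main producers in the adult brain, and neurons make some as well.

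The 40 genes fall into 6 role groups: 7 genes of the mevalonate steps, 11 of the steps from squalene to cholesterol, 6 of sterol sensing and control, 7 of fatty acid synthesis and desaturation, 4 elongases, and 5 genes of myelin glycolipids and their substrates. Total counts ran from 23853845 to 32864391 per library, with a median of 26727282. Markers of the oligodendrocyte list were present in every library, while 4 adipocyte markers summed to at most 0.221 CPM (CPM is a count scaled to the library's total by TMM, edgeR's trimmed mean of M-values). Of the hepatocyte list, Ttr, which the choroid plexus also makes, reached 871 CPM in female sham ACC library 1 against at most 72.5 CPM elsewhere, and Alb reached 25.2 CPM in male SNI ACC library 1 against at most 7.06 CPM. Library 3 of the female sham mPFC and library 3 of the male sham ACC stood apart from the other libraries of their groups, and library 1 of the female SNI mPFC held the lowest oligodendrocyte sum of all. The counts of calls are given below also without these libraries, as are values of named genes that they moved most.

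The control regions of 4 of the genes are shown as examples: Hmgcs1 is the most abundant gene of the mevalonate steps, Mvk was higher in the mPFC, Elovl6 was lower in the mPFC, and Ugt8a belongs to the glycolipid group. Each line holds the 250 bases before the transcription start from RefSeq (GRCm38.p6), read 5′ to 3′ on the gene's own strand. Capitals mark matches on either strand to CCAAT, to GGGCGG and, in Hmgcs1, to TCACNCCAC, a form of the sterol regulatory element that SREBF proteins bind.
Hmgcs1 (chr13:119690101-119690350, plus strand): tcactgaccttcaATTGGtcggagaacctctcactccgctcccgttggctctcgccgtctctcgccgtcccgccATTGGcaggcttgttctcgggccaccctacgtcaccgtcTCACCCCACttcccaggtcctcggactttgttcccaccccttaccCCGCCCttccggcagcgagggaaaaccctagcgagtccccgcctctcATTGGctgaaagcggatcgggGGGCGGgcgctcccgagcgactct
Mvk (chr5:114444019-114444268, plus strand): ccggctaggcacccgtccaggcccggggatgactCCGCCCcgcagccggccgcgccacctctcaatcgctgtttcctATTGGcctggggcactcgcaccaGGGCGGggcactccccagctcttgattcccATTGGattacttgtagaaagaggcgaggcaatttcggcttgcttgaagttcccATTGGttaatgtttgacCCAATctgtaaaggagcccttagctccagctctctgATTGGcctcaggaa
Elovl6 (chr3:129532136-129532385, plus strand): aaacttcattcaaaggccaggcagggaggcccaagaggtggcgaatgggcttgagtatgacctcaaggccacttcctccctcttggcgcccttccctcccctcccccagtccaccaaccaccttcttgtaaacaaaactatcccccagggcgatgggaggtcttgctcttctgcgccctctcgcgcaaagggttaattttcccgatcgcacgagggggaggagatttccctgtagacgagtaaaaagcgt
Ugt8a (chr3:125938653-125938902, minus strand): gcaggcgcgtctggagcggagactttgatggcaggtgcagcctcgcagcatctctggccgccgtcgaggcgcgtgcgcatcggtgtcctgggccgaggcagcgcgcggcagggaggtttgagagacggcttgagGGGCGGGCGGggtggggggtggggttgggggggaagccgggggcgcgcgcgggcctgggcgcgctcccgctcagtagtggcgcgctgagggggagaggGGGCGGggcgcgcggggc

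In these windows Hmgcs1 held 3 matches to CCAAT and 2 to GGGCGG, Mvk held 5 and 2, Ugt8a held 0 and 3 (a pair of which overlap), and Elovl6 held neither. RefSeq windows were found for 32 of the 40 genes, some with several starts. CCAAT was in a window of 14 of the 15 genes of the mevalonate and squalene steps that had one, which is 93.3%, of 10 of the 17 other genes (58.8%), and of 37.5% of the 27025 genes that have a window. GGGCGG was found in the same numbers of genes, 14 of 15 and 10 of 17, against 35.4% of all genes. TCACNCCAC was in 1 gene, Hmgcs1, and in 1.22% of all genes. These counts describe letters and no binding was measured.

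Levels were compared between genes as CPM per kilobase of annotated exon, averaged over the 24 libraries. Scd2, a stearoyl-CoA desaturase that makes oleate, stood first at 278 CPM per kilobase, followed by Hmgcs1, which condenses acetoacetyl-CoA into HMG-CoA, at 68.8. Fads1 and Fads2, the desaturases of polyunsaturated fatty acids, followed at 50.7 and 44.0, Srebf2 at 49.1, Scd1 at 40.3 and fatty acid synthase, Fasn, at 40.04. Fdft1, squalene synthase, was the most abundant gene of the squalene group at 21.1, Elovl5 led the elongases at 16.9, and Cers2, the ceramide synthase of very long acyl chains, led the glycolipid group at 9.60 CPM per kilobase. Scd3 was lowest at 0.989. Reads could be shared between Scd1, Scd2 and Scd3 or between Acat2 and its close copy Acat3, and Tm7sf2 shares exon sequence with Vps51 and Fdft1 with Ctsb, as Fdps does with Gm43738, Cers2 with Setdb1 and Elovl1 with Cdc20, so the levels of these genes are uncertain by what the counting gave to their partners.

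**Figure D1:**
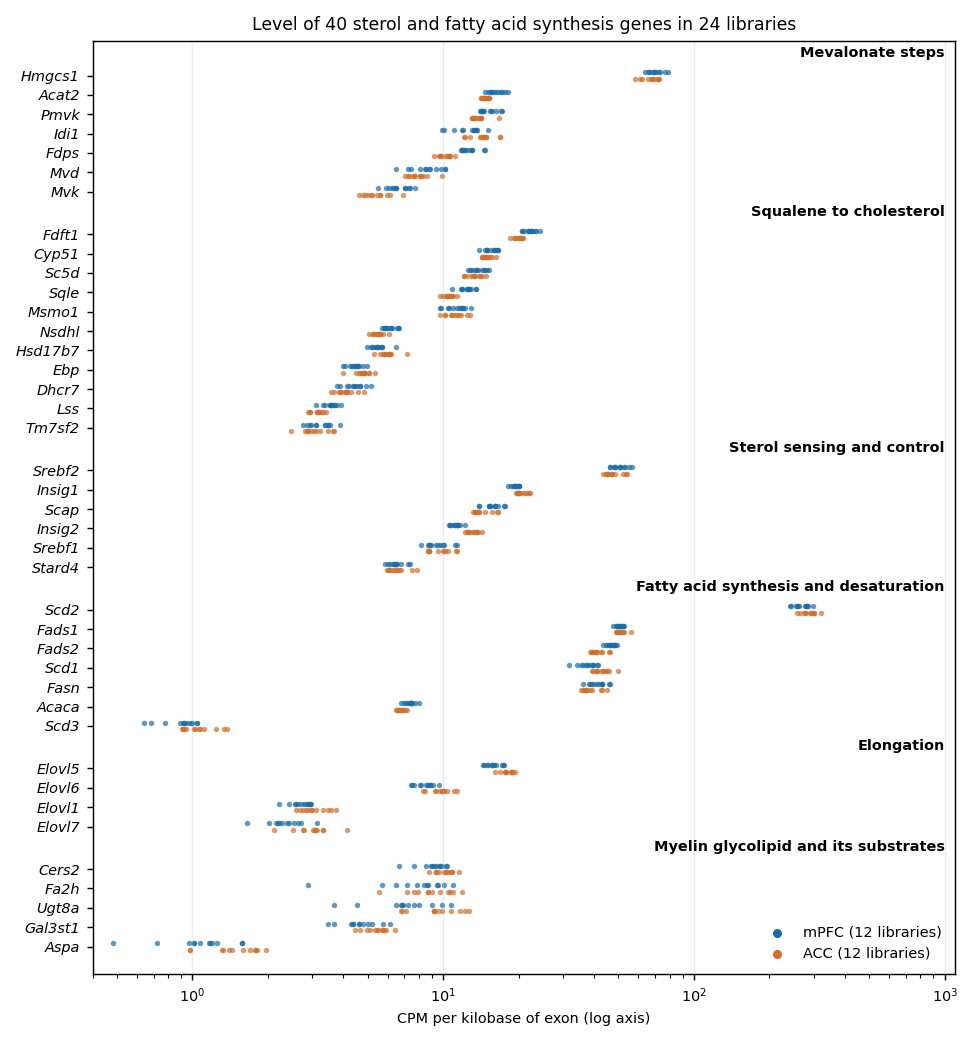
Level of the 40 genes as CPM per kilobase of exon (log axis), one point per library, blue for the 12 mPFC and orange for the 12 ACC libraries, grouped by role and ordered by mean level. Scd2 lies near 278 and Scd3 near 0.989, while the points of most genes keep within a narrow band.

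Across all 24 libraries Aspa, Ugt8a, Fa2h and Elovl7 varied most. The coefficient of variation was 3.46% for Fads1, 4.83% for Insig1 and 5.11% for Cyp51, lanosterol demethylase. It was 28.5% for Aspa, 26.9% for Ugt8a, 23.9% for Fa2h and 20.4% for Elovl7. Hmgcs1 in the mPFC held 292, 305 and 352 CPM in female sham libraries, 362, 310.2 and 318 in female SNI, 324, 334 and 337 in male sham and 302, 319.6 and 319 CPM in male SNI. Its ACC libraries held 329, 313 and 309.6 CPM in female sham, 314, 333 and 317 in female SNI, 331, 329 and 267 in male sham and 280.0, 285 and 301 CPM in male SNI. The lowest library was number 3 of the male sham ACC, the ranges of the 2 regions overlapped, and no comparison called Hmgcs1.

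The first question was whether the 2 regions differ in these genes. Fdps and Sqle were higher in the mPFC and Insig2 was lower in every sex and treatment, and the genes called among the 4 elongases and the 5 glycolipid genes were all lower. The mPFC was compared with the ACC in female sham, male sham, female SNI and male SNI mice, which use different libraries, by edgeR's quasi-likelihood test, and the threshold was an FDR below 0.1, adjusted over every gene tested. In female sham mice 12 of the 40 genes were called higher (30.0%, where 14.0% of all 16746 genes tested were) and 7 lower (17.5%, where 14.5% were). Male sham mice gave 4 higher (10%, where 7.46% of all genes were) and 2 lower (5.0%, where 6.7% were). Female SNI mice gave 6 higher (15.0%, where 13.7% were) and 11 lower (27.5%, where 13.9% were), and male SNI mice 3 higher (7.5%, where 10.4% were) and 10 lower (25%, where 10.6% were). The members' share exceeded the background by a factor of 2 or so among genes higher in female sham mice and among genes lower in both SNI comparisons, and was near it elsewhere. The 40 genes were chosen with earlier results of these data known, so these shares are a description and no test of the group. Fdps and Sqle were called higher in all 4 comparisons, as were 3.9% of the 16319 genes tested in all of them, and Insig2 was called lower in all 4, as were 3.25%. Single libraries were left out in 6 fits of the male sham comparison. There Fdps stayed called in 6, Sqle in 4 and Insig2 in 1, with an FDR of up to 0.162 for Insig2. Of the 40 genes, 15 were higher in the mPFC in all 4 comparisons, 12 were lower in all 4 and 13 changed sign.

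**Figure D2:**
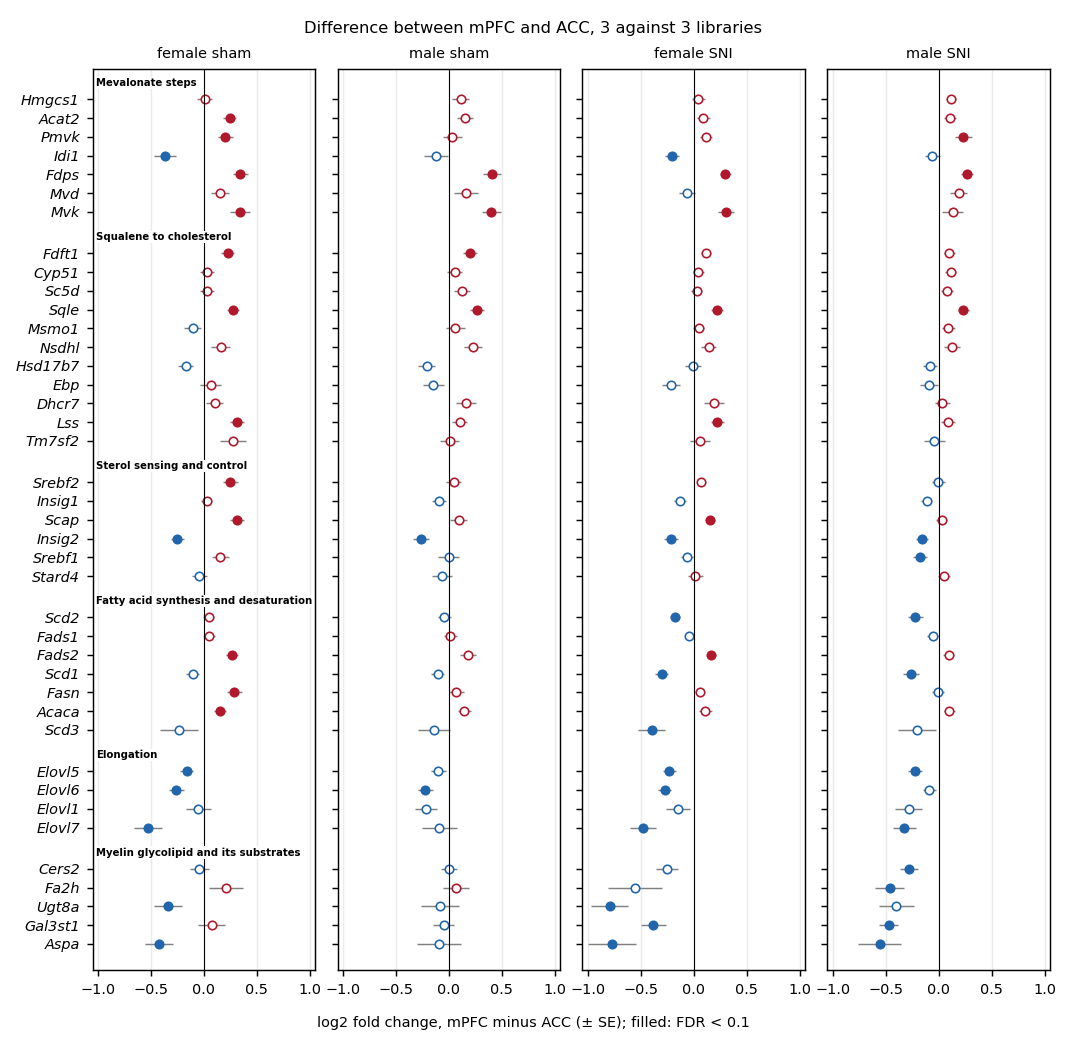
Difference between the mPFC and the ACC for the 40 genes as log2 fold change (mPFC minus ACC) with its SE, in 4 panels of 3 against 3 libraries. Filled points have an FDR under 0.1. Fdps and Sqle are filled to the right in all 4 panels, Insig2 to the left in all 4, and the elongases lie to the left throughout.

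Farnesyl diphosphate synthase, Fdps, which makes the precursor of sterols and of the lipid anchors of proteins, was the clearest of the genes that were higher in the mPFC. Its mPFC libraries held 51.5, 54.9 and 50.2 CPM in female sham, 49.5, 49.8 and 50.6 in female SNI, 51.4, 61.6 and 61.4 in male sham and 52.8, 54.4 and 54.8 CPM in male SNI. The ACC libraries held 44.6, 41.3 and 38.6 CPM in female sham, 41.1, 40.5 and 40.7 in female SNI, 44.5, 44.3 and 43.6 in male sham and 44.7, 46.9 and 42.7 CPM in male SNI. The lowest of the 12 mPFC libraries lay above the highest of the 12 ACC libraries, and Fdps was the one gene of the 40 of which this held. The share of all genes with this separation was not counted. On the log2 scale it was higher in the mPFC by 0.34 (SE 0.07, FDR = 0.00692) in female sham, 0.41 (SE 0.08, FDR = 0.00817) in male sham, 0.30 (SE 0.05, FDR = 0.000997) in female SNI and 0.27 (SE 0.06, FDR = 0.00706) in male SNI mice.

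Squalene epoxidase, Sqle, a rate-limiting step of sterol synthesis, was higher by 0.27 (FDR = 0.0101), 0.27 (FDR = 0.0272), 0.22 (FDR = 0.0204) and 0.23 (FDR = 0.00941) in the same order of groups. Its mPFC libraries held 66.1, 70.4 and 71.5 CPM in female sham, 68.7, 75.2 and 75.1 in male sham, 69.6, 65.8 and 60.4 in female SNI and 65.1, 69.2 and 70.01 CPM in male SNI. Those of the ACC held 59.9, 58.4 and 55.1 CPM in female sham, 60.9, 63.05 and 59.5 in male sham, 53.9, 57.5 and 57.7 in female SNI and 57.2, 57.3 and 58.8 CPM in male SNI. Within each sex and treatment every mPFC library lay above every ACC library. Mvk, mevalonate kinase, was called higher in 3 of the 4 comparisons, by 0.34 (FDR = 0.0276) in female sham, 0.40 (FDR = 0.0166) in male sham and 0.30 (FDR = 0.0158) in female SNI mice, and stood at 0.13 (FDR = 0.429) in male SNI mice. Its mPFC libraries were set against those of the ACC with 18.8, 20.7 and 17.4 against 16.4, 13.9 and 15.01 CPM in female sham, 17.1, 19.7 and 17.3 against 13.8, 12.8 and 14.5 in male sham, 14.7, 16.8 and 16.2 against 13.5, 12.4 and 13.04 in female SNI, and 19.5, 18.9 and 15.8 against 18.5, 16.02 and 15.04 CPM in male SNI mice. The 2 regions overlapped in male SNI mice and were separate in the other 3 comparisons.

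Other genes of these steps were called in 1 or 2 comparisons. Phosphomevalonate kinase, Pmvk, was higher in female sham, at 0.20 (FDR = 0.0678), and in male SNI mice, at 0.23 (FDR = 0.0612), with 29.5, 29.1 and 24.4 CPM in the mPFC of the latter and 22.9, 24.2 and 23.4 CPM in the ACC. Fdft1 was higher in female sham, at 0.22 (FDR = 0.0217), and in male sham mice, at 0.20 (FDR = 0.0865), with 92.2, 99.1 and 103 CPM in the male sham mPFC and 87.1, 83.9 and 87.2 CPM in the male sham ACC. Lss, lanosterol synthase, which closes the sterol rings, was higher in female sham, at 0.31 (FDR = 0.00717), and in female SNI mice, at 0.22 (FDR = 0.0206). Its female sham libraries held 39.4, 42.4 and 40.9 CPM in the mPFC and 34.01, 31.7 and 33.8 CPM in the ACC, which did not overlap. Idi1, the isomerase between the mevalonate steps and Fdps, went the other way. It was lower in the mPFC of female sham, at -0.37 (SE 0.11, FDR = 0.0324), and of female SNI mice, at -0.21 (FDR = 0.0478). Its female sham libraries held 35.2, 34.7 and 47.9 CPM in the mPFC and 52.02, 51.1 and 49.9 CPM in the ACC, with library 3 of the mPFC nearer to the ACC than to its own group. With the GC trend removed its difference was -0.15 (FDR = 0.116) and the call ended. Without mPFC library 3 it was -0.53, and without library 3 of the male sham ACC Idi1 was also called lower in male sham mice, at -0.26 (FDR = 0.00899).

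In the control group, Insig2, which keeps SCAP and with it the SREBF proteins in the endoplasmic reticulum, was lower in the mPFC throughout. The differences were -0.25 (FDR = 0.0163) in female sham, -0.26 (FDR = 0.0443) in male sham, -0.21 (FDR = 0.0303) in female SNI and -0.16 (FDR = 0.0758) in male SNI mice. Its sham libraries held 37.04, 37.00 and 39.4 CPM in the female mPFC against 43.95, 46.5 and 45.3 in the ACC, and 38.1, 39.7 and 38.8 in the male mPFC against 49.6, 47.96 and 43.1 CPM in the ACC. After SNI they held 42.4, 36.7 and 39.5 against 46.9, 47.5 and 43.6 CPM in females and 38.6, 39.5 and 40.4 against 42.3, 43.5 and 46.1 CPM in males. No mPFC library reached the ACC libraries of its own sex and treatment. Scap itself was higher in the mPFC of female sham, at 0.32 (FDR = 0.00861) (0.18 with the GC trend removed, still called), and female SNI mice, at 0.15 (FDR = 0.0402), with 130.5, 132 and 115 CPM in the female sham mPFC and 100.4, 101 and 103 CPM in the female sham ACC. Srebf2, the factor that mainly drives sterol genes, was called in female sham mice alone, at 0.25 (FDR = 0.0273), with 394, 405 and 343 CPM in the mPFC and 334, 310.2 and 323 CPM in the ACC. Elsewhere its differences were 0.04 in male sham, 0.07 in female SNI and within 0.01 of 0 in male SNI mice. Srebf1 was called lower in male SNI mice, at -0.18 (FDR = 0.0982).

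The 4 elongases, which lengthen fatty acids in the endoplasmic reticulum, were lower in the mPFC in all 4 comparisons. Elovl5 was called lower in female sham (-0.16), female SNI (-0.23) and male SNI mice at -0.22 (SE 0.06, FDR = 0.0342), where the mPFC held 55.5, 51.03 and 52.8 CPM and the ACC 66.1, 56.6 and 62.5 CPM. Elovl6, which lengthens palmitate, was called lower in female sham at -0.26 (SE 0.07, FDR = 0.0279), in male sham at -0.22 (FDR = 0.0848) and in female SNI mice at -0.27 (FDR = 0.00802). Its mPFC and ACC libraries held 49.3, 47.9 and 52.6 against 54.5, 63.6 and 62.4 CPM in female sham, 58.4, 57.2 and 61.6 against 73.1, 71.3 and 63.6 in male sham, 57.01, 55.7 and 48.3 against 64.8, 63.9 and 66.6 in female SNI and 56.1, 52.1 and 54.9 against 59.9, 53.4 and 60.1 CPM in male SNI mice. Only the male SNI libraries overlapped. Elovl7 showed the largest differences of the group, -0.53 (SE 0.13, FDR = 0.0199) in female sham, -0.48 (FDR = 0.0164) in female SNI and -0.32 (FDR = 0.0667) in male SNI mice, and stood at -0.09 (FDR = 0.816) in male sham mice, where it was called at -0.28 (FDR = 0.0919) without ACC library 3. Its female libraries held 8.87, 8.77 and 10.8 CPM in the sham mPFC, 16.6, 12.1 and 12.6 in the sham ACC, 6.61, 9.72 and 9.13 in the SNI mPFC and 11.1, 12.4 and 12.4 CPM in the SNI ACC.

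Among the genes of fatty acid synthesis, the desaturases parted. Fads2, which starts the desaturation of essential fatty acids, was higher in the mPFC of female sham, at 0.27 (FDR = 0.0106), and female SNI mice, at 0.16 (SE 0.04, FDR = 0.0159), with 142, 147 and 149 CPM in the female SNI mPFC and 134, 129 and 129 CPM in the female SNI ACC. Scd1 was lower in the mPFC of female SNI, at -0.30 (SE 0.06, FDR = 0.00348), and male SNI mice, at -0.26 (FDR = 0.0393), and Scd2 was lower in the same comparisons, at -0.18 (FDR = 0.0186) and -0.22 (FDR = 0.0457). Scd1 libraries held 155, 173 and 183 CPM in the mPFC and 215, 202 and 218 CPM in the ACC of female SNI mice, and 193, 168 and 181 against 243, 191 and 213 CPM in male SNI mice, where library 1 of the mPFC overlapped the ACC. In sham mice neither was called, with Scd1 at -0.11 and -0.11 and Scd2 at 0.05 and -0.04 in females and males. Without library 3 of the female sham mPFC Scd1 was called lower in female sham mice at -0.13 (FDR = 0.0908), and without library 3 of the male sham ACC in male sham mice at -0.16 (FDR = 0.0262). Fasn was called higher in female sham mice alone, at 0.29 (FDR = 0.0170), and Acaca, acetyl-CoA carboxylase, as well, at 0.15 (FDR = 0.0829).

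The 5 glycolipid genes gave 2 calls in sham mice, Ugt8a and Aspa in females, and 7 in SNI mice, all lower in the mPFC. Ugt8a, which makes galactosylceramide, stood at -0.79 (SE 0.17, FDR = 0.00655) in female SNI and -0.40 (FDR = 0.124) in male SNI mice, against -0.34 (FDR = 0.0938) in female sham and -0.08 (FDR = 0.853) in male sham mice. Gal3st1, which turns galactosylceramide into sulfatide, was lower at -0.38 (FDR = 0.0360) in female SNI and -0.47 (SE 0.09, FDR = 0.00303) in male SNI mice, and stood at 0.07 and -0.05 in the sham mice. Fa2h, which hydroxylates the fatty acids of these lipids, was lower in male SNI mice at -0.46 (FDR = 0.0360), and stood at -0.56 (FDR = 0.148) in female SNI mice. Without library 1 of the female SNI mPFC Fa2h stood at -0.23 (FDR = 0.199) there, and Aspa moved from -0.77 to -0.48 (FDR = 0.0131). Without library 3 of the male sham ACC, Ugt8a at -0.32 (FDR = 0.00485) and Aspa at -0.34 (FDR = 0.0504) were called lower in male sham mice as well. In SNI mice the oligodendrocyte markers were lower as well: 18 of 20 were called lower in the mPFC of females and 17 of 20 of males. In female sham mice, where Ugt8a and Aspa were called, 0 of 20 were called lower and 1 higher (median 0.008). In male sham mice 1 was called lower and 1 higher (median -0.06). The part of these markers in the differences of the glycolipid genes was not tested. Astrocyte markers were lower in the mPFC as well, with 4 of 10 called in female sham, 4 in male sham, 7 in female SNI and 8 in male SNI mice. Striatal neuron markers were higher in the mPFC, with 5, 4, 4 and 3 of 6 called in female sham, male sham, female SNI and male SNI mice and 1 called lower in the last, and meningeal fibroblast markers were lower, with 5, 4, 0 and 4 of 7 called, while 2 of these were called higher in female SNI mice. In the same order of groups, endothelial markers gave 3, 2, 2 and 5 of 6 called lower and 0 higher. Neuron markers gave 3, 3, 6 and 4 of 11 called lower and 1, 0, 2 and 1 higher. Microglia markers gave 0 of 8 called lower and 3, 0, 1 and 0 higher. Oligodendrocyte precursor markers gave 0, 0, 1 and 1 of 8 called lower and 2, 2, 3 and 1 higher. The part of all these markers in the region differences was not tested.

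The counts of members called between the regions moved with single libraries, and so did the share called of all genes. In female sham mice 19 of the 40 were called, 10 without mPFC library 2 (13.3% of all genes called), 11 without ACC library 2 (13.7%), 18 without ACC library 1, which held the Ttr (21.8%), and 25 without mPFC library 3 (41.5%). In male sham mice the 6 calls became 1 without mPFC library 2 (6.69%), 2 without mPFC library 3 (6.61%), 3 without ACC library 1 (9.84%), 3 without ACC library 2 (9.76%) and 19 without ACC library 3 (27.0%). The 17 calls of female SNI mice became 11 without ACC library 1 (16.7%), 11 without ACC library 3 (20.4%) and 20 without mPFC library 1 (31.6%). The 13 of male SNI mice became 3 without mPFC library 2 (12.4%) and 4 without ACC library 1 (12.7%). With the trend on GC content removed, 6 of the 19 calls in female sham mice ended (Mvk, Pmvk, Idi1, Elovl5, Ugt8a and Aspa) and those of Fdps and Sqle did not. The split of higher and lower calls moved with it from 12 and 7 to 13 and 3 in female sham mice. In male SNI mice it moved from 3 and 10 to 8 and 11, and male sham mice gave 9 and 3. Over all genes that setting called 1847 higher and 2174 lower of 16746 in female sham mice, against 2337 and 2436 without it. In male sham mice it called 2369 and 2081 of 16831, against 1255 and 1128. In male SNI mice it called 2255 and 2102 of 16872, against 1753 and 1783. The mPFC and ACC libraries stand in different tables, and a batch that followed the table could not be told apart from the region.

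**Figure D3:**
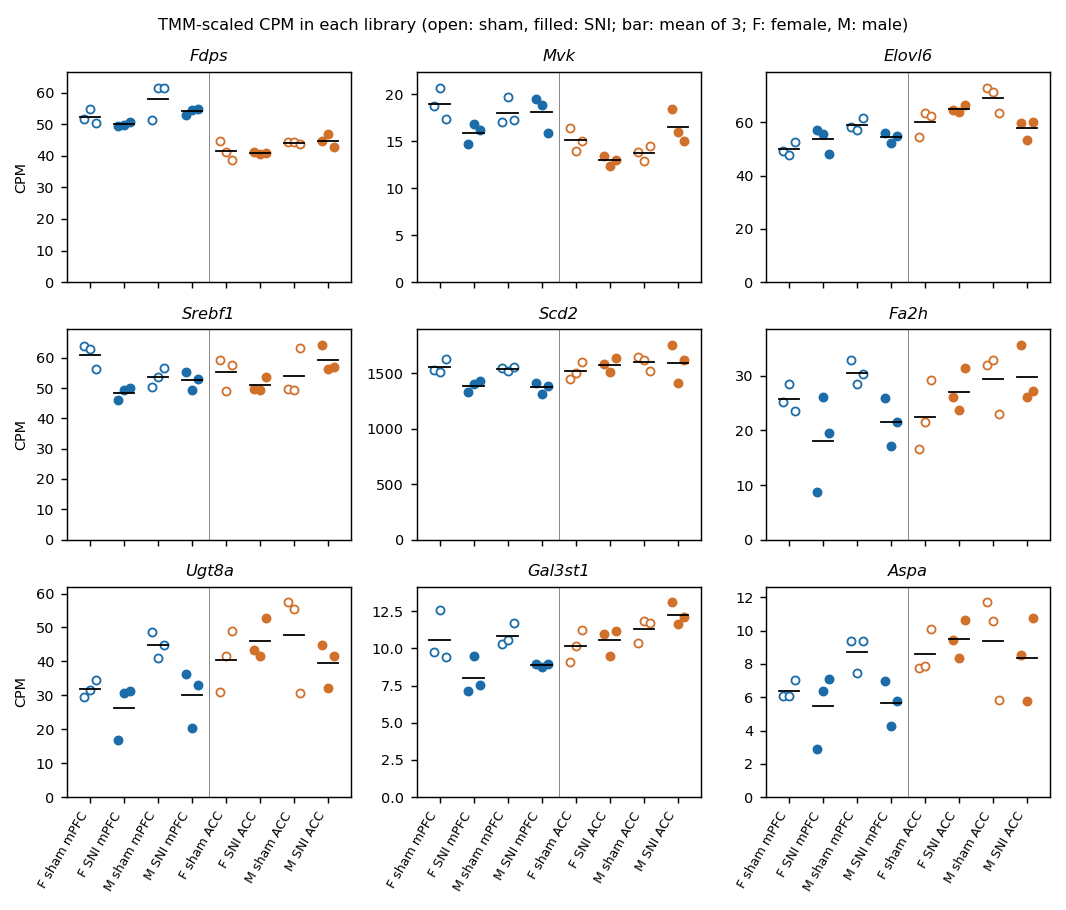
CPM of 9 genes in each library by group, open points for sham and filled points for SNI, blue for the mPFC and orange for the ACC, with bars at group means. Fdps separates the regions in every group, and in the male mPFC all SNI libraries of Fa2h, Ugt8a, Gal3st1 and Aspa lie below all sham libraries.

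The second question was whether nerve injury changed these genes in the mPFC. Most of the 40 genes were lower after SNI, with Fa2h, Gal3st1 and Ugt8a among those furthest from 0 in both sexes, and 1 gene passed the test in 1 sex. In females library 1 of the SNI mPFC held the lowest value of each of these genes, and their groups overlapped. In the male mPFC Fa2h fell (2.5% of the 40 genes, where 0.494% of the 16989 genes tested were called). Fa2h held 32.9, 28.5 and 30.3 CPM in the sham and 25.9, 17.1 and 21.6 CPM in the SNI libraries, a log2 fold change of -0.49 (SE 0.11, FDR = 0.0985). Every SNI library lay below every sham library. With the GC trend removed the FDR was 0.122 and the call ended, while the fold change under other settings stayed between -0.53 and -0.49. It also ended without any 1 library except SNI library 1: without SNI library 2 or 3, or without sham library 1, 2 or 3, 0 of the 40 genes were called, and without SNI library 1 there were 3, Ugt8a, Fa2h and Aspa.

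The other glycolipid genes of the male mPFC stood beside Fa2h. Ugt8a held 48.8, 41.1 and 44.9 CPM in sham and 36.4, 20.5 and 32.9 CPM in SNI libraries, at -0.58 (SE 0.14, FDR = 0.134). Aspa, which frees acetate for lipid synthesis from N-acetylaspartate, held 9.38, 7.47 and 9.36 in sham against 6.96, 4.295 and 5.76 CPM in SNI libraries, at -0.61 (SE 0.15, FDR = 0.139). Gal3st1 held 10.3, 10.6 and 11.7 in sham against 8.95, 8.74 and 8.93 CPM in SNI libraries, at -0.29 (FDR = 0.229), and Cers2 38.2, 36.5 and 37.9 in sham against 33.6, 28.2 and 32.9 CPM in SNI libraries, at -0.24 (FDR = 0.186). In each of these 5 genes the SNI libraries lay below the sham libraries without overlap. Over the 40 genes, 29 had a log2 fold change under 0, the median was -0.07 (0.00134 over all genes tested), DESeq2 called 3 (Scd2, Fa2h and Cers2, among 283 of all genes), 13 had an unadjusted p under 0.05 (1903 of all genes), and in 12 every SNI library lay below every sham library, as in 9.44% of all genes tested.

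In the female mPFC edgeR called 0 of the 40 genes (0.00592% of 16897 genes tested were called), 8 had an unadjusted p under 0.05 (2039 of all genes) and DESeq2 called 0. Of the 40 genes, 28 had a log2 fold change under 0, with a median of -0.10 (-0.00337 over all genes), and in 9 every SNI library lay below every sham library, as in 7.61% of all genes. Srebf1 had the smallest p, with 63.96, 63.00 and 56.1 CPM in sham and 46.02, 49.2 and 49.98 CPM in SNI libraries, at -0.34 (SE 0.07, FDR = 0.401). Its groups did not overlap, and with the GC trend removed it stood at -0.19 (FDR = 0.700). Fa2h held 25.2, 28.6 and 23.6 in sham against 8.72, 26.2 and 19.5 CPM in SNI libraries, at -0.50 (FDR = 0.437), Ugt8a 29.5, 31.4 and 34.6 in sham against 16.7, 30.7 and 31.2 CPM in SNI libraries, at -0.28 (FDR = 0.505), and Gal3st1 9.78, 12.6 and 9.44 in sham against 7.12, 9.46 and 7.51 CPM in SNI libraries, at -0.40 (FDR = 0.401). In Fa2h, Ugt8a and Gal3st1 the groups overlapped, and library 1 of the SNI group was lowest. Upwards, Scd3 had the smallest p, with 3.54, 2.77 and 2.43 CPM in sham and 3.705, 3.497 and 3.42 CPM in SNI libraries, at 0.28 (FDR = 0.517).

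The female result depended on library 3 of the sham mPFC. Without it 8 of the 40 genes were called, where 15.9% of the 17317 genes tested were. Srebf1 at -0.40 (FDR = 0.0153), Fasn at -0.27 (FDR = 0.0372), Scap at -0.26 (FDR = 0.0392), Srebf2 at -0.23 (FDR = 0.0440), Mvk at -0.31 and Gal3st1 at -0.48 were lower after SNI, and Idi1 at 0.31 (FDR = 0.0476) and Msmo1, a sterol demethylase, at 0.22 were higher. That library held 423 CPM of Fasn against 501 and 508 in the other sham libraries, and 47.9 CPM of Idi1 against 35.2 and 34.7. The genes called lower had a GC content of 55.3% (Scap) to 59.9% (Gal3st1), and those called higher 41.1% (Idi1) and 44.1% (Msmo1). The part of GC content in these calls was not tested. Without SNI library 1, 0 genes were called.

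**Figure D4:**
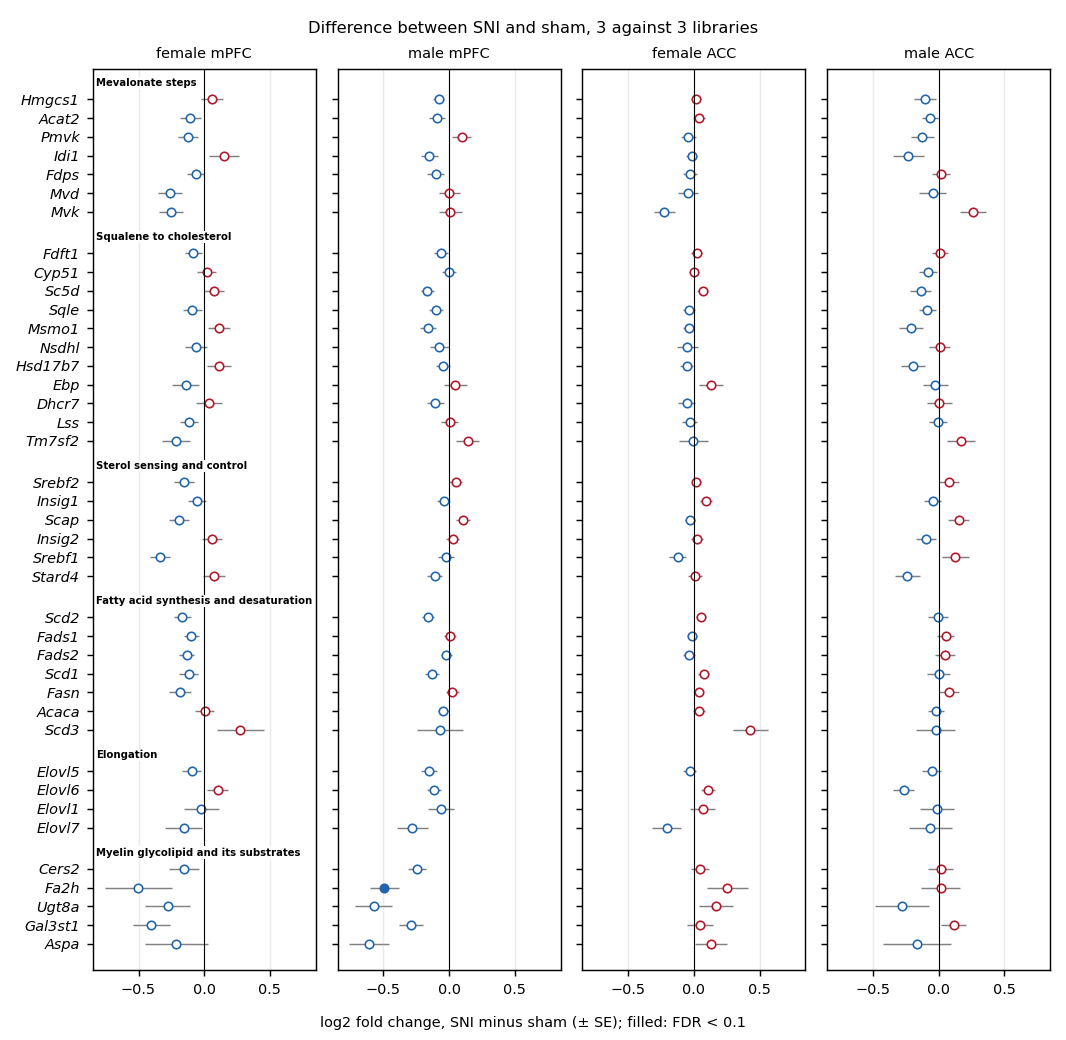
Difference between SNI and sham for the 40 genes as log2 fold change (SNI minus sham) with its SE, in 4 panels of 3 against 3 libraries. Filled points have an FDR under 0.1. The one filled point is Fa2h in the male mPFC at -0.49, and the 5 glycolipid genes lie left of 0 in both mPFC panels.

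With the sexes combined and sex in the model, edgeR called 0 genes of the 40 in the mPFC and 0% of the 17641 tested, 10 of the 40 had an unadjusted p under 0.05 (1293 of all genes), and DESeq2 called 2, Scd2 and Gal3st1 (63 of all genes). Of the 40, 36 had a log2 fold change under 0, where 48.6% of all genes tested had, and the median was -0.05. Scd2 had the smallest p, at -0.16 (SE 0.04, FDR = 0.328). It held 1528, 1516 and 1627 CPM in female sham, 1335, 1404 and 1427 in female SNI, 1544, 1523 and 1557 in male sham and 1417, 1314 and 1389 CPM in male SNI libraries. In both sexes every SNI library lay below every sham library, and Scd2 was the one gene of the 40 with this pattern, found in 0.782% of all genes tested. Gal3st1 stood at -0.34 (FDR = 0.328), Ugt8a at -0.43 (FDR = 0.452) and Fa2h at -0.50 (FDR = 0.462). Upwards, Insig2 had the smallest p, at 0.05 (FDR = 0.912).

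Summed oligodendrocyte markers were lower in every SNI library of the mPFC than in every sham library of its sex. The summed glycolipid genes were so in males but not in females. In the female mPFC their sum was 107.1 CPM in SNI library 2 and 106.0 CPM in sham libraries 1 and 3. The summed level of 20 oligodendrocyte markers ran from 3464 to 3955 CPM in the female sham mPFC and from 1320 to 3239.6 CPM after SNI, and from 3908 to 4477 CPM in the male sham mPFC and from 2321 to 3369 CPM after SNI. All 20 had a log2 fold change under 0 in both sexes, with medians of -0.56 in females and -0.46 in males, and 0 were called in females and 12 in males. The sum of Ugt8a, Fa2h, Gal3st1, Aspa and Cers2 per 1000 CPM of oligodendrocyte markers was 28.8, 28.9 and 30.6 CPM in the female sham and 45.4, 33.1 and 33.3 in the female SNI mPFC, and 31.2, 31.8 and 31.5 in the male sham and 33.2, 33.97 and 33.05 in the male SNI mPFC. Gene by gene, the mean per 1000 CPM of markers went from 10.7 in the male sham to 10.1 in the male SNI mPFC for Ugt8a, from 2.07 to 1.93 for Aspa, from 7.25 to 7.34 for Fa2h, from 2.59 to 3.10 for Gal3st1 and from 8.92 to 10.9 for Cers2. A ratio of this kind rises for any gene that falls less than the markers, and that of Fdps, for one, averaged 13.9 in male sham libraries and 19.0 in male SNI libraries of the mPFC. In bulk tissue fewer oligodendrocytes and less RNA in each of them cannot be told apart. Precursor markers summed to between 323 and 343 CPM in the female sham mPFC and between 273 and 318 CPM after SNI, and the astrocyte sums of the treatments overlapped in both sexes. Of 6 striatal neuron markers, 6 had a log2 fold change under 0 in the female mPFC (median -0.37) and 5 in the male mPFC (median -0.14), with 0 called by edgeR, and their part in the SNI values was not tested.

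**Figure D5:**
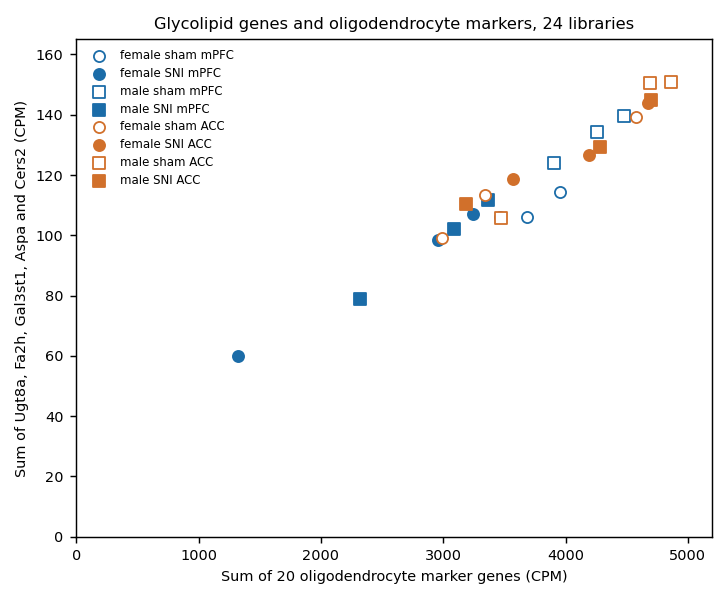
Sum of the 5 glycolipid genes against the sum of 20 oligodendrocyte markers, both in CPM, one point per library (circles female, squares male, open sham, filled SNI, blue mPFC, orange ACC). The lowest point is library 1 of the female SNI mPFC, at 59.9 against 1320 CPM, and the points follow one rising band.

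In the ACC the test passed no gene. In the female ACC edgeR called 0 of the 40 genes (0.024% of 16684 tested were called), 2 had an unadjusted p under 0.05 (1113 of all genes) and DESeq2 called 0. Scd3 stood highest, with 3.27, 3.35 and 3.76 CPM in sham and 4.86, 4.41 and 4.77 CPM in SNI libraries, at 0.43 (SE 0.13, FDR = 0.622). Mvk had the smallest p of those lower, with 16.4, 13.9 and 15.01 in sham against 13.5, 12.4 and 13.04 CPM in SNI libraries, at -0.23 (SE 0.08, FDR = 0.635). Both were separate between the groups. In the male ACC edgeR called 0 (0.00599% of 16702 tested were called), 5 had an unadjusted p under 0.05 (749 of all genes) and DESeq2 called 0. Elovl6 held 73.1, 71.3 and 63.6 CPM in sham and 59.9, 53.4 and 60.1 CPM in SNI libraries, at -0.27 (SE 0.08, FDR = 0.768), and Mvk 13.8, 12.8 and 14.5 in sham against 18.5, 16.02 and 15.04 CPM in SNI libraries, at 0.26 (SE 0.10, FDR = 0.768). With the GC trend removed Mvk stood at 0.15 (FDR = 0.856). Mvk thus stood on opposite sides of 0 in the females and the males of the ACC, a difference that was not tested.

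The male result depended on library 3 of the male sham ACC. Without it 10 of the 40 genes were called, where 13.5% of the 17013 genes tested were. Idi1 at -0.37 (FDR = 0.0313), Stard4, which carries sterols between membranes, at -0.33, Elovl6 at -0.32 (FDR = 0.0332), Msmo1 at -0.30, Ugt8a at -0.51 (FDR = 0.0356), Hmgcs1 at -0.19 and Sc5d, a late desaturase of the sterol pathway, at -0.20 were lower after SNI, and Srebf1 at 0.26 (FDR = 0.0574), Scap at 0.23 and Mvk at 0.31 were higher. Library 3 held 267 CPM of Hmgcs1 against 331 and 329 in the other sham libraries, and 63.2 CPM of Srebf1 against 49.6 and 49.2. Here the genes called lower had a GC content of 39.9% (Ugt8a) to 46.1% (Elovl6), and those called higher 55.3% (Scap) to 59.4% (Srebf1). The part of GC content was not tested here either. With the sexes combined edgeR called 0 genes of the 40 in the ACC and 0% of all 17289, and DESeq2 called 0. An unadjusted p under 0.05 was found for 2 (961 of all genes), Hsd17b7, a reductase of the sterol pathway, and Msmo1. Hsd17b7 had the smallest p, at -0.12 (SE 0.05, FDR = 0.814), with 31.1, 31.5 and 29.9 CPM in female sham, 29.6, 29.5 and 30.03 in female SNI, 31.1, 36.6 and 31.3 in male sham and 30.8, 27.1 and 28.7 CPM in male SNI libraries. Scd3 had the smallest p of those higher, at 0.21 (FDR = 0.814), with 3.95, 3.61 and 3.27 CPM in male sham and 3.22, 3.65 and 3.82 CPM in male SNI libraries. The glycolipid genes stood at -0.05 for Ugt8a, 0.14 for Fa2h, 0.09 for Gal3st1, -0.01 for Aspa and 0.04 for Cers2.

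The differences between effects were tested as interactions. For region by SNI, over all 24 libraries, edgeR called 0 of the 40 genes and 0% of 18078 tested, 8 of the 40 had an unadjusted p under 0.05 (1723 of all genes) and DESeq2 called 0. The 5 glycolipid genes lay lowest, with Gal3st1 at -0.43 (SE 0.11, FDR = 0.394), Fa2h at -0.64 (FDR = 0.467), Aspa at -0.40 (FDR = 0.602), Ugt8a at -0.38 (FDR = 0.578) and Cers2 at -0.24 (FDR = 0.501), where a value under 0 means a lower SNI effect in the mPFC than in the ACC. Library 1 of the female SNI mPFC, the lowest of all 24 in each of these 5 genes, enters these values. In the same interaction all 20 oligodendrocyte markers lay under 0, with a median of -0.58 and 0 called, and their part was not tested. Hsd17b7 had the smallest p of those above 0, at 0.15 (FDR = 0.524). Without library 3 of the female sham mPFC 1 gene was called, Gal3st1, where 0.418% of all genes were. For sex by SNI in the mPFC, edgeR called 0 of the 40 and 0% of all genes, 7 had an unadjusted p under 0.05 (2791 of all 17641 genes) and DESeq2 called 2, Srebf1 and Scap (806 of all genes), shares near those of all genes. Srebf1 stood at 0.31 (SE 0.10, FDR = 0.220) (male minus female), with 50.3, 53.8 and 56.7 CPM in the male sham and 55.3, 49.3 and 52.9 CPM in the male SNI mPFC beside the female values above. With the GC trend removed Srebf1 stood at 0.07 and Sc5d at -0.10 (FDR = 0.991 for both). Without that correction Sc5d stood at -0.24 (FDR = 0.231), with 62.8, 61.01 and 70.8 CPM in female sham, 71.5, 66.4 and 66.95 in female SNI, 69.2, 74.1 and 72.9 in male sham and 64.5, 62.4 and 65.5 CPM in male SNI libraries. Without library 3 of the female sham mPFC 8 genes were called in this interaction, where 18.3% of all genes were, Tm7sf2, Srebf1, Srebf2, Scap and Fasn above 0 and Idi1, Msmo1 and Sc5d under 0. Those above 0 had a GC content of 55.3% (Scap) to 59.4% (Srebf1), and those under 0 of 41.1% (Idi1) to 44.1% (Msmo1), whose part was not tested.

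Genes of the same pathways outside the 40 were looked at in lists chosen by name, also with earlier results of these data known. Their counts stand beside the shares of all genes called higher and lower (14.0% and 14.5% in female sham, 7.46% and 6.7% in male sham, 13.7% and 13.9% in female SNI, 10.4% and 10.6% in male SNI mice). Of 23 genes of cholesterol uptake, efflux and storage, 7 were higher and 1 lower in the mPFC of female sham mice, 0 and 2 in male sham, 5 and 6 in female SNI, and 1 and 6 in male SNI mice, with Cyp46a1, which clears cholesterol from neurons, higher by 0.31 (FDR = 0.0141) in female sham mice. Of 24 other genes of fatty acid synthesis and activation, 3 were higher and 5 lower in female sham, 3 and 5 in male sham, 3 and 9 in female SNI, and 5 and 7 in male SNI mice, with the desaturase Fads3 higher in all 4 (0.35 to 0.42) and the acyl-CoA synthetase Acsl6 lower in all 4 (-0.41 to -0.28). Of 19 other sphingolipid and galactolipid genes, 2 and 4, 0 and 1, 2 and 3, and 1 and 1 were, in the same order, and Nat8l, which makes N-acetylaspartate, was lower in all 4. No gene of these 3 lists was called by edgeR in any SNI comparison.

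The genes whose log2 CPM followed Scd2 most closely over the 24 libraries, among the 18078 tested, were Car2 (Pearson r = 0.90), Otud7b (0.90), Psat1 (0.89), Dock1 (0.89) and Oxsr1 (0.89). Those nearest to Hmgcs1 were Snapc1 (0.94), G3bp2 (0.94), Atl1 (0.93), Mettl16 (0.92) and Akap11 (0.92). For Ugt8a, added after its values were seen, Ermn came first (0.98), and Ermn is on the oligodendrocyte list. The libraries of these correlations share regions, sexes and depth, and the values are a description.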

How the data were processed

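Per the labels, RNA of mPFC and ACC punches was sequenced in 24 libraries of 8 groups, 3 each. The deposited values are counts of reads per gene, whole numbers without normalization, which the authors made with Trimmomatic, Bowtie2 against Rfam, HISAT2 and HTSeq; the submitters' processing notes name the build GRCm38. The annotation release and strand mode are not given in the sources used here. Symbols, exon lengths and GC content came from GENCODE M21. The tables' columns give sex, treatment and number, and the region was taken from the table.

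Genes were kept by filterByExpr (count of 10, total of 15), scaled by TMM and tested with the quasi-likelihood F-test of edgeR 4.0.16 in R 4.3.3 (legacy setting), each comparison on its own libraries, with Benjamini-Hochberg adjustment (FDR under 0.1). The SE of a log2 fold change was derived from its F statistic. The p-values measure the spread between pooled libraries. Alternatives were DESeq2 1.42.0, RLE scaling, no filter on low counts, a smooth GC trend removed per library, a block on the replicate number and omission of every library singly. The fit was tested on simulated data. The 40 genes and all lists were chosen with earlier results of these data known. Genes given by library were, in each comparison, up to 4 called in each direction with the smallest p (1 where none was called) and the most abundant of each role group; others named were chosen after their values were seen. Some genes of the pathway lists are not reported here.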

Additional observations from a re-analysis of the deposited data

Results flagged for a closer look

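In the ACC, 3 genes had SNI libraries that all lay on one side of the sham libraries in females and all on the other side in males. How many of all genes show this was not counted, so the pattern is a description. The female margin was small for Acat2, with the lowest SNI library at 36.79 and the highest sham library at 36.77 CPM. For Elovl6 these were 63.92 and 63.65 CPM. The SNI effect of females minus that of males was -0.4862 on the log2 scale for Mvk, 0.3771 for Elovl6 and 0.1059 for Acat2, the cytosolic thiolase. For Mvk the female effect was -0.23 and the male effect 0.26. For Elovl6 they were 0.11 and -0.27, and for Acat2 0.04 and -0.07. Each difference was flagged because of these opposite directions, and the difference was not tested. None of the effects passed the FDR threshold in its own sex, and library 3 of the male sham ACC, which stood apart, enters the male effects.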

How the results depend on the processing

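Results are counts of the 40 genes called. Without the filter on low counts 4 were called for SNI in the female mPFC, 2 in the female ACC, 5 in the male mPFC and 7 in the mPFC with sexes combined, 6 in the region by SNI and 2 in the sex by SNI interaction. Calls over all genes rose as well. In the same order they were 641 of 29247, 398 of 28858, 596 of 29717, 539 of 31601, 594 of 33364 and 883 of 31601. With the filter they were 1, 4, 84, 0, 0 and 0. DESeq2 called 3 in the male mPFC (283 of all genes), 2 in the combined mPFC (63) and 2 in the sex by SNI interaction (806). With the GC trend removed 0 were called in the male mPFC (59 of all 16989 genes) and 12 between regions in male sham mice (4450 of all 16831 genes). Other settings kept these counts within 1.5 times.

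Same-numbered libraries did not deviate together (correlations from -0.23 to 0.19 over genes), so the numbers were not taken as pairs. With a replicate block 9 genes were called for SNI in the male mPFC (745 of all genes against 84 without it) and 1 in the combined mPFC (43 of all genes against 0), and no other count moved by over 1.5 times. Of 24 libraries, 10 correlated best with their own number across treatments and 8 across regions.

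Leaving out 1 library at a time gave 0 to 8 calls for SNI in the female mPFC, 0 to 3 in the male mPFC, 0 to 10 in the male ACC, and 0 in the female ACC and in both combined comparisons. Between the regions it gave 10 to 25 calls in female sham, 1 to 19 in male sham, 11 to 20 in female SNI and 3 to 14 in male SNI mice. The interactions gave 0 to 1 (region by SNI) and 0 to 8 (sex by SNI). Among 45 named values 0 changed sign in any of these settings. These values were chosen as called or as having the smallest p in their direction, which favours a stable sign. The cause of these shifts was not tested, and 3 libraries a group limit what can be called.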
